A study of Homo sapiens with 6 samples.

Results

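The genes described here are the cell-surface receptors of the bone morphogenetic protein (BMP), activin and TGF-beta family, together with PMEPA1, a membrane protein that restrains their signalling. They were measured in LNCaP, an androgen-responsive human prostate cancer cell line. Of 10 genes on the list, 9 had an array feature assigned to that gene alone, each with 1 feature, among 16704 genes in all. The 9 were BMPR1B, ACVR1, ACVR1B and TGFBR1 (type I receptors), BMPR2, ACVR2A, ACVR2B and TGFBR2 (type II receptors) and PMEPA1. Where a gene has several features the one with the highest mean over all arrays counts, which made no difference here. The list was drawn up with earlier results of these data known, in which BMPR1B had passed a test only when 1 control clone was left out. BMPR1A was not analysed here.

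Cytoplasmic RNA was hybridised to Affymetrix human Gene ST arrays, with 1 array per clone. All clones were LNCaP cells grown in T-Medium with serum, stably transfected with a hairpin construct in the siLentGene-2 vector and selected by neomycin resistance. The 3 control clones carried a scrambled hairpin and the 3 knockdown clones a hairpin directed at MBD2, which recognises methylated CpG sites in DNA and takes part in gene repression. Each replicate is a clone of its own, per the design text, so the spread within a group includes differences between clones. How few arrays there are limits how precise any value is.

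In this family a dimeric ligand brings type II and type I receptors together, both of which are serine/threonine kinases. The type II receptor phosphorylates the type I receptor, which then phosphorylates SMAD proteins that enter the nucleus with SMAD4. BMP receptors act mainly through SMAD1, SMAD5 and SMAD9, and activin and TGF-beta receptors through SMAD2 and SMAD3. LNCaP cells are widely described as poorly responsive to TGF-beta, and both BMPR1B and PMEPA1 are known as androgen-regulated genes in prostate cells.

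The labelled cell type was checked by setting its markers against the quartiles of all genes on each array, a coarse check since features differ in their probes. All 6 measured luminal prostate markers lay above the upper quartile of genes on every array. The 3 measured basal markers lay below the median on every array, as did the 4 endothelial markers, which were also below the lower quartile. Of 7 stromal markers 5, and of 5 leukocyte markers 4, lay below the median on every array. The exceptions went the other way: the stromal marker VIM and the leukocyte marker LCP1 lay above the upper quartile on every array. The stromal marker COL1A1 lay above the median on every array. Every knockdown clone had less MBD2 than the lowest of the 3 controls, with a log2 fold change of -1.28 (standard error 0.14, limma adjusted p = 0.111, not past the threshold of 0.05). Its log2 values were 8.73, 9.25 and 9.20 in control clones 1, 2 and 3 and 7.68, 7.84 and 7.81 in the knockdown clones.

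Since MBD2 acts on methylated CpG, the sequence upstream of BMPR1B, the receptor that varied most between clones, is shown with its CpG dinucleotides in capitals. RefSeq (GRCh38.p14) lists 3 starts for this gene on the plus strand of chromosome 4. The 250 bases before each start are printed 5′ to 3′, from chr4:94757705-94757954, chr4:94995590-94995839 and chr4:95051427-95051676.
BMPR1B start 1: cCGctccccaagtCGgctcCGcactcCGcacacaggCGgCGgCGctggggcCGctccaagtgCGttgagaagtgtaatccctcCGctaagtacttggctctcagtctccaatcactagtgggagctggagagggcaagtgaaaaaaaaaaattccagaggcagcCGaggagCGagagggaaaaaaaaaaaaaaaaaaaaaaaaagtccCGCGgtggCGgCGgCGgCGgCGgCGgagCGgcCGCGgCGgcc
BMPR1B start 2: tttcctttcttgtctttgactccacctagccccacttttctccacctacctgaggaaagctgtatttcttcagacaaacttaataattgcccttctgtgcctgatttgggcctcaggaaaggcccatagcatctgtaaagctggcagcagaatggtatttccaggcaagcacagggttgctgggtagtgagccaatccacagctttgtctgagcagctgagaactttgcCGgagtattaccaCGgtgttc
BMPR1B start 3: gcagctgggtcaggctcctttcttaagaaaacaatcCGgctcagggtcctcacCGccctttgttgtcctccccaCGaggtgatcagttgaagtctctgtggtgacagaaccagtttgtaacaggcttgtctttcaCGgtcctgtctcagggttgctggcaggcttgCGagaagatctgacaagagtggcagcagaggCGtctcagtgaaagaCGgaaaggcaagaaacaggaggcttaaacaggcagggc
The most upstream window holds 24 CpG, and 23.7% of all 35116 RefSeq promoter windows of that length hold at least as many. The second holds 2 and the third 7, against a median of 11 over all windows. A CpG count is read from the reference and says nothing of methylation, which these arrays do not measure, nor of which start LNCaP cells use.

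The windows of the other genes varied widely in CpG count, counted as the letters CG, whose reverse complement is again CG. BMPR2 had a single start with 36 CpG, ACVR2B a single start with 26 and ACVR2A a single start with 14. ACVR1B had 48 at its more upstream start, a count reached by 0.262% of all windows, and 4 at the other. ACVR1 had 30, 8 and 3 at its 3 starts and TGFBR2 7 and 12 at its pair of starts. PMEPA1 had 6, 14, 33 and 9 at its 4 starts, and TGFBR1 ranged from 0 to 42 over 8. Of 25 windows of the 9 genes, 13 lay above the median of all windows.

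**Figure D1:**
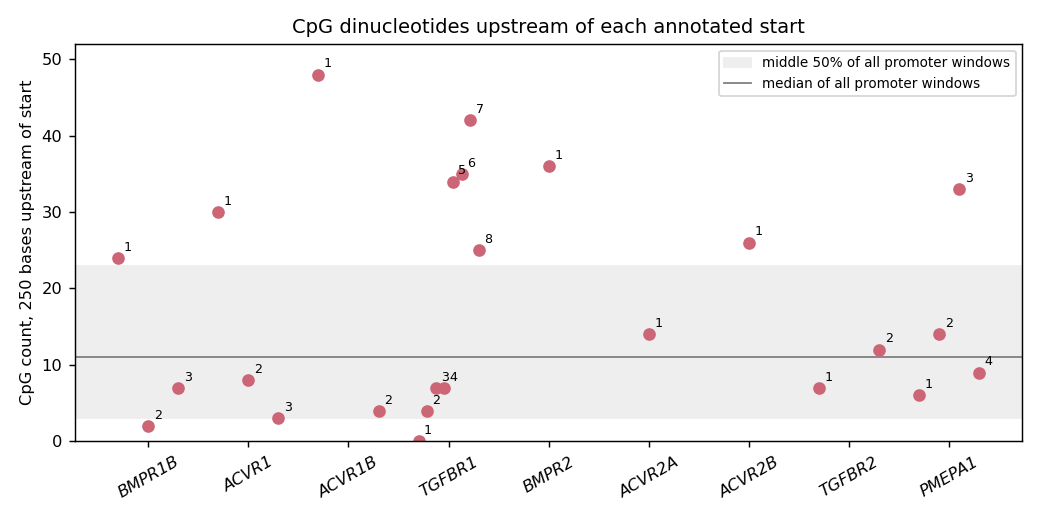
Number of CpG dinucleotides (y axis) in the 250 bases upstream of each RefSeq start of the 9 measured genes (x axis); points are starts, numbered from the most upstream. The grey band spans 3 to 23 CpG, the middle part of all windows, and the line marks the median of 11; BMPR1B has 1 start above the band and 2 below the median.

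The comparison in the design, MBD2 knockdown against scrambled control, asks which genes change when MBD2 is reduced. No receptor passed the threshold, and neither did PMEPA1: 0 of 9 had an adjusted p under 0.05 in limma, where 0 of 16704 genes, or 0% of those tested, passed. With equal variances and no moderation, 0 of the 9 were called as well. At an unadjusted p under 0.05 there were 0 of 9, against 9.39% of all genes (3.93% higher and 5.45% lower). That count was 1 of 9 under 3 alternatives: BMPR1B without control clone 1, and PMEPA1 without knockdown clone 1 or with a weight fitted to each array. In none of the 9 were the knockdown clones all above or all below the controls, which was so for 15.4% of all genes (6.57% above and 8.87% below). The means of 5 genes were lower and those of 4 higher in the knockdown clones. The median log2 fold change of the 9 was -0.019, beside -0.0043 over all genes.

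What set these genes apart from each other was how they varied between clones. BMPR1B, a type I receptor for BMP ligands, had log2 values of 4.21, 6.98 and 7.38 in control clones 1, 2 and 3. In knockdown clones 1, 2 and 3 it had 5.32, 5.39 and 5.39. Control clone 1 was thus the lowest of all 6 arrays, control clones 2 and 3 were the highest, and the 3 knockdown clones lay close together in between. Control clone 1 lay 2.97 log2 units below the mean of the other controls and 1.11 below the lowest knockdown clone. Its value was under the lower quartile of genes on its array, 4.74, and near those of the endothelial genes CDH5 (4.09) and VWF (4.25) there. The table gives no measure of background, so whether BMPR1B was above it in that clone is unknown and no fold is given. In such bulk RNA, fewer cells with the transcript and less of it per cell cannot be told apart.

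The group means of BMPR1B were 6.19 ± 1.73 in the controls, against 5.37 ± 0.04 in the knockdown clones (n = 3 each, mean ± SD). The log2 fold change was -0.82 with a standard error of 0.73 (limma adjusted p = 0.790), and its 95% confidence interval ran from -2.53 to 0.89. It was the only measured gene of the 9 with a mean difference of at least 1.5-fold, a size reached by 1.56% of all genes. The SD of BMPR1B over the controls ranked 5 among 16704 genes. In the knockdown clones 90.7% of genes had an SD as high or higher.

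The call for BMPR1B turned on control clone 1. Without that clone the knockdown mean was 3.52-fold below the controls, with a log2 fold change of -1.81 (SE 0.13, limma adjusted p = 0.0192). Without control clone 2 it was -0.43 and without control clone 3 it was -0.23, both far from the threshold. BMPR1B was put on the list with this dependence known, so these values describe it and are no independent support.

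Control clone 1 differed in few other genes to this extent. In 6 genes it was at least 4-fold below both other controls, namely BMPR1B, AGR2, CRYBG1, EDA2R, EPHA3 and RFX6, a set defined after the values were seen. Such genes numbered 1 for control clone 2 and 0 for control clone 3. Set against the other knockdown clones, clone 1 had 12 and clones 2 and 3 had 0 each. In CRYBG1 and RFX6 the knockdown clones all had log2 values of 6.73 or higher, near controls 2 and 3. EDA2R, a receptor of the TNF family, stood at 4.49 in control clone 1, at 6.76 and 7.59 in the other controls and between 4.17 and 4.43 in the knockdown clones. Over the 5 measured genes on each side of BMPR1B, control clone 1 minus the mean of the other controls lay between -0.42 and 0.32. For BMPR1B itself it was -2.97. The nearest of these genes, PDLIM5 and UNC5C, had -0.39 and -0.04. CCSER1, UNC5C, PDHA2 and STPG2 were below the lower quartile of every array, and HPGDS was below it on every control array. A drop of that size had little room to show in these genes. PDLIM5 and SMARCAD1 were brighter, at 8.25 and 8.30 in control clone 1.

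**Figure D2:**
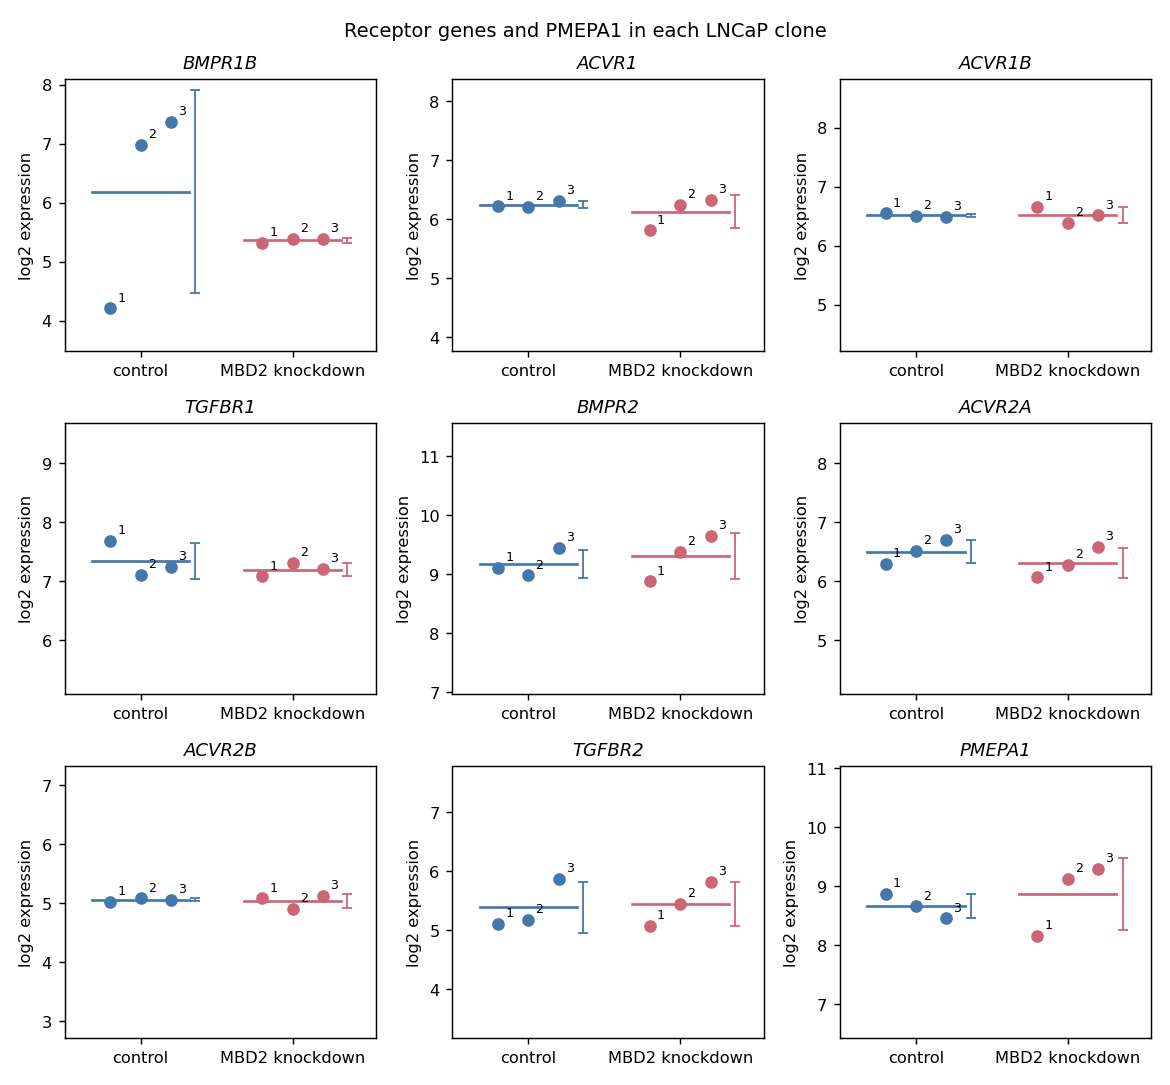
Log2 expression (y axis, 4.6 units in every panel) of the 8 measured receptors and PMEPA1 in control and MBD2 knockdown clones; numbered points are clones, horizontal lines group means and bars 1 SD. BMPR1B spans 4.21 to 7.38 in the controls and 5.32 to 5.39 in the knockdown clones, and the groups overlap in every panel.

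The genes whose pattern over the 6 arrays lay nearest to that of BMPR1B were SWAP70, PSTPIP2, SEMA3C, AGR2 and LXN. Likeness was measured as the root mean square difference of log2 values after subtracting each gene's own mean. It was 0.38 for SWAP70, which codes for an actin-binding signalling protein, and 0.48 for PSTPIP2, an adaptor of the actin cytoskeleton. SEMA3C, a secreted semaphorin, had 0.52, AGR2, a protein disulfide isomerase of the endoplasmic reticulum, had 0.56 and LXN, a carboxypeptidase inhibitor, had 0.58. BMPR1B's own root mean square deviation was 1.08. SWAP70 had 5.21, 6.85 and 7.48 in the controls, against 5.82, 5.58 and 5.35 in the knockdown clones. SWAP70, SEMA3C and AGR2 were lowest in control clone 1, PSTPIP2 in knockdown clone 3 and LXN in knockdown clone 2. The genes were picked for likeness over these same arrays, so shared features of the pattern are no separate result. No gene came within 0.25 of BMPR1B.

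The other type I receptors differed little between groups. ACVR1, which binds BMP and related ligands, had 6.22, 6.21 and 6.31 in the controls, against 5.81, 6.24 and 6.33 in the knockdown clones. Only knockdown clone 1 was below the controls, and the log2 fold change was -0.12 (95% confidence interval -0.44 to 0.21). ACVR1B, an activin receptor, lay between 6.49 and 6.55 in the controls, and between 6.39 and 6.65 in the knockdown clones, with a log2 fold change of 0.0058 (-0.20 to 0.22). Its groups were centred on almost the same value, and the interval leaves room for a difference of either sign.

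TGFBR1, the type I receptor for TGF-beta, had 7.69, 7.11 and 7.25 in the controls, against 7.08, 7.31 and 7.21 in the knockdown clones. Control clone 1 was the highest of all arrays and the other 5 overlapped. The log2 fold change was -0.15 (95% confidence interval -0.51 to 0.21), and it was 0.02 without control clone 1. The SD of TGFBR1 over the controls was reached or passed by 4.95% of genes.

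Among the type II receptors, BMPR2, which binds BMP ligands, had 9.11, 8.98 and 9.44 in the controls, against 8.88, 9.38 and 9.65 in the knockdown clones. Knockdown clone 1 was the lowest of all arrays and clone 3 the highest, and the log2 fold change was 0.13 (95% confidence interval -0.35 to 0.60). ACVR2A, a receptor for activins and some BMPs, had 6.30, 6.51 and 6.71 in the controls, against 6.07, 6.28 and 6.59 in the knockdown clones. Its log2 fold change was -0.19 (-0.56 to 0.17), the smallest adjusted p of the 9 genes in limma (0.762), and the groups overlapped.

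ACVR2B, a second activin receptor, varied least, between 4.91 and 5.13 over all arrays, with a log2 fold change of -0.019 (95% confidence interval -0.22 to 0.18). TGFBR2, the type II receptor for TGF-beta, had 5.10, 5.18 and 5.88 in the controls, against 5.08, 5.45 and 5.82 in the knockdown clones. Clone 3 was the highest in each group, and the group means differed by 0.06 (-0.52 to 0.64). Over the controls, 2.01% of genes had an SD as high as that of TGFBR2, which also lay below the median of genes on all 6 arrays.

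BMPR2, ACVR1 and ACVR2A all lie on chromosome 2, and each was lowest of all 6 arrays in knockdown clone 1. Over the 1053 measured genes of chromosome 2, the median deviation from each gene's own mean was -0.11 in knockdown clone 1 and between -0.05 and 0.07 in the other clones. Among the 209 measured genes from ACVR2A to BMPR2 in gene order it was -0.13 in knockdown clone 1, and 101 of the 209, or 48.3%, were lowest there. Of all genes measured, 19.9% were lowest in that clone. The part of this shift of the chromosome in the values of the 3 receptors was not tested. Without knockdown clone 1, BMPR2 had a log2 fold change of 0.34, ACVR1 0.04 and ACVR2A -0.07.

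PMEPA1, which binds SMAD proteins activated by TGF-beta receptors and recruits ubiquitin ligases of the NEDD4 family, had 8.87, 8.66 and 8.46 in the controls. In the knockdown clones it had 8.17, 9.13 and 9.29, so clone 1 lay below every control and clones 2 and 3 above every control. The mean was 8.66 ± 0.21 in the controls, against 8.86 ± 0.61 in the knockdown clones (n = 3 each, mean ± SD), a log2 fold change of 0.20 (SE 0.28, 95% confidence interval -0.45 to 0.86, limma adjusted p = 0.873). Its SD over the knockdown clones ranked 206 among 16704 genes. Without knockdown clone 1 the log2 fold change was 0.55 (limma adjusted p = 0.119) and without knockdown clone 3 it was -0.01. The measured genes beside PMEPA1, 5 on each side, had differences between knockdown clone 1 and the mean of the other knockdown clones of -0.16 to 0.40, against -1.05 for PMEPA1. Among them CTCFL and CIMIP1 were below the lower quartile of every array, where a drop has little room to show.

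The genes most like PMEPA1 over the arrays were MSMB, RPS6KA5, SCNN1A, FAM13C and SSX1, with root mean square differences of 0.018, 0.037, 0.095, 0.107 and 0.108. MSMB codes for a protein secreted by the prostate, RPS6KA5 for a kinase activated by stress and mitogens, and SCNN1A for a subunit of the epithelial sodium channel. In each of these 5 genes knockdown clone 1 was the lowest array, which is part of the likeness they were picked for and no separate result. PMEPA1 itself deviated from its mean by 0.385, and 398 genes came within 0.25 of it.

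Over the 9 genes, knockdown clone 1 was the lowest knockdown clone in 7 and clone 3 the highest in 7. Over all genes, clone 1 was the lowest in 32.5% and clone 3 the highest in 25.6%. Of the 7 genes that were lowest in clone 1, 3 lie on chromosome 2, as described above, so they are not separate observations.

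**Figure D3:**
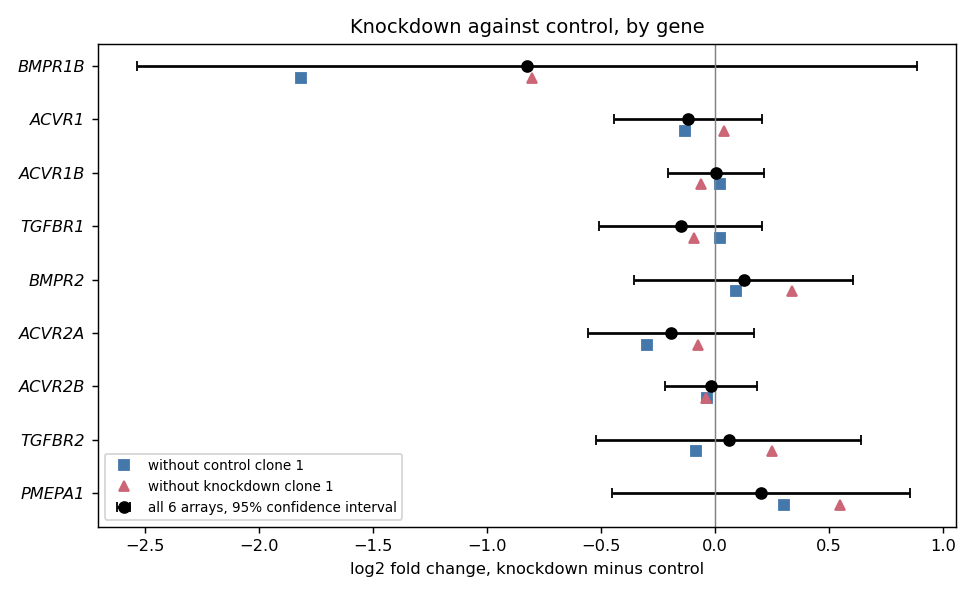
Log2 fold change of knockdown over control (x axis) for the 8 measured receptors and PMEPA1 (y axis); black points and bars give all 6 arrays with the 95% confidence interval, squares the value without control clone 1 and triangles the value without knockdown clone 1. Every interval includes 0, and BMPR1B moves from -0.82 to -1.81 without control clone 1.

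The rest of the pathway was described from lists of its ligands, co-receptors, antagonists, SMAD proteins and targets. None of the genes on these lists passed the threshold in limma, so the values below are differences that did not pass. Leaving aside the 9 genes themselves, 110 measured genes were on the lists, of which 4 higher and 2 lower had an unadjusted p under 0.05, or 5.45%, against 9.39% of all genes. Groups did not overlap in 2 of 7 co-receptors, 1 of 13 antagonists, 1 of 9 latent TGF-beta genes, 1 of 15 regulators and 0 of 8 SMAD genes. Among 30 ligands 2 were above and 1 below, among 13 BMP targets 1 above and 1 below, and among 20 TGF-beta targets 1 above. That was so for 15.4% of all genes, and BAMBI is on 2 of these lists. The 3 receptors outside the list, ACVRL1, ACVR1C and AMHR2, differed little: the log2 fold change was 0.025 for ACVR1C and -0.0084 for AMHR2, the pair with the smallest p. All of their values lay between 4.33 and 5.54 on every array.

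Among co-receptors, 5 of 7 measured genes had higher means and 2 lower, with a median of 0.058. The largest difference was that of BAMBI, a pseudoreceptor that resembles a type I receptor without a kinase domain and dampens signalling. It had 8.46, 8.44 and 7.31 in the controls, against 9.12, 9.16 and 8.88 in the knockdown clones. Its knockdown clones were each above the highest control, and control clone 3 lay well below the other controls. The log2 fold change was 0.99 (SE 0.30, 1.98-fold, limma adjusted p = 0.387), and 0.61 without control clone 3, the lowest value over the clones left out. NEO1, a receptor for the BMP co-receptors of the RGM family, had 7.81, 7.92 and 7.68 in the controls, against 8.02, 7.96 and 8.34 in the knockdown clones, a log2 fold change of 0.31 that was 0.19 without knockdown clone 3. Its groups did not overlap either.

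Of 30 measured ligand genes, 26 had higher means in the knockdown clones and 4 lower. The differences were small, from -0.17 to 0.22 with a median of 0.043, and in all genes together 51.3% had lower means. The median of the ligands relative to the control mean was 0.19 in knockdown clone 1, -0.035 in clone 2 and -0.0041 in clone 3, so clone 1 alone lay above every control. Without that clone the median of the ligands was -0.012, and with a weight fitted to each array it was -0.0071. Of the 30 ligands 12 were left when the dimmest 30% of genes were left out, with a median of 0.071. Its array was the narrowest in spread, its SD over genes being 2.00 while the other 5 had 2.05 to 2.07. INHBA, which codes for an activin subunit, had 0.18 and BMP4, a BMP ligand, had -0.17.

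For the secreted antagonists, 6 of 13 were higher and 7 lower, with a median of -0.0026. TWSG1, which binds BMPs together with chordin, was lower in the knockdown clones, with 6.85, 6.75 and 6.42 against 6.90, 7.21 and 7.83 in the controls. The groups did not overlap, though control clone 1 lay just above knockdown clone 1, and the log2 fold change was -0.64 (SE 0.23, limma adjusted p = 0.463), and -0.38 without control clone 3. CHRDL2, a chordin-like antagonist, had 0.15, and 0.054 without control clone 3. Of 9 genes of latent TGF-beta binding and activation, 5 were higher, with a median of 0.010. LTBP4, which holds latent TGF-beta in the matrix, had 6.88, 7.08 and 7.002 in the controls, against 7.36, 7.21 and 7.28 in the knockdown clones, a log2 fold change of 0.30 (SE 0.09, limma adjusted p = 0.385), and LRRC32 had 0.15. THBS1, a matrix protein that can activate latent TGF-beta, ranged from 6.27 in knockdown clone 1 to 10.26 in knockdown clone 3, and its groups overlapped.

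Of the 8 SMAD genes, 7 had lower means and 1 a higher mean, with a median of -0.069. SMAD9, of the BMP branch, had a log2 fold change of -0.31 (limma adjusted p = 0.575) and SMAD2, of the activin and TGF-beta branch, had -0.28 (0.689). SMAD9 had -0.16 without knockdown clone 2 and -0.51 with array weights. SMAD2 ranged from -0.45 without control clone 1 to -0.18 without control clone 2 or knockdown clone 2, was -0.43 without knockdown clone 1 and was -0.48 with array weights. It had 7.32, 7.86 and 7.79 in the controls, against 7.66, 7.17 and 7.28 in the knockdown clones. SMAD4, the partner of all receptor-activated SMADs, had 7.56, 8.19 and 8.11 in the controls, against 8.10, 7.63 and 7.60 in the knockdown clones. Both were low in control clone 1 and in knockdown clones 2 and 3 and high in the other clones.

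SMAD2 and SMAD4 lie on chromosome 18, and that pattern was found over the whole chromosome. The median deviation of its 239 measured genes from their own means was -0.10, 0.15 and 0.11 in control clones 1, 2 and 3 and 0.12, -0.15 and -0.15 in knockdown clones 1, 2 and 3. The range of 0.303 over arrays was the largest of 23 chromosomes, with 0.178 for chromosome 2 in second place. MBD2 itself lies between SMAD4 and NEDD4L on chromosome 18, and control clone 1 had the lowest MBD2 value of the controls. In the knockdown clones MBD2 did not follow the chromosome: it was lowest in clone 1 (7.68, against 7.84 and 7.81), where the chromosome median was high. NEDD4L, a ubiquitin ligase of the family that PMEPA1 recruits, had 9.31, 10.16 and 10.49 in the controls, against 10.06, 9.42 and 9.31 in the knockdown clones. TWSG1 is on the same chromosome and stood low in control clone 1 and in knockdown clones 2 and 3, but was low in knockdown clone 1 too. SMAD7 is there as well, low in control clone 1 (5.30) and knockdown clone 2 (5.32), with 5.61 in knockdown clone 3. As they share a chromosome, SMAD2, SMAD4 and SMAD7 are not separate observations in the count of SMAD genes. The part of the chromosome in these differences was not tested.

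Among the regulators of SMADs and receptors, 4 of 15 were higher and 11 lower, with a median of -0.089. FKBP1A, which binds type I receptors and keeps them inactive, had 0.16, and 0.077 with array weights. USP15, a deubiquitinase that acts on the TGF-beta receptor complex, had -0.11, and -0.055 after repeated quantile normalization. USP15 lay between 8.95 and 8.97 in the controls, and between 8.82 and 8.90 in the knockdown clones, so its groups did not overlap although the difference was small.

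Target genes of the pathway had no common direction. Of 13 BMP targets 6 were higher and 7 lower, with a median of -0.014. BAMBI, described above, is on this list as well. ID1, a helix-loop-helix inhibitor of transcription factors and a direct BMP target, had 7.69, 7.61 and 8.04 in the controls, against 7.38, 7.23 and 7.49 in the knockdown clones. Each knockdown clone was below the lowest control, with a log2 fold change of -0.41 (SE 0.13, limma adjusted p = 0.404). ID2, ID3 and ID4, named after their values were seen, had -0.40, -0.27 and -0.26, with overlapping groups in each. ID2 lies on chromosome 2 and was lowest in knockdown clone 1, at 7.54. SMAD6 and SMAD7, inhibitory SMADs that BMP and TGF-beta signalling induce, had -0.04 and -0.05.

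**Figure D4:**
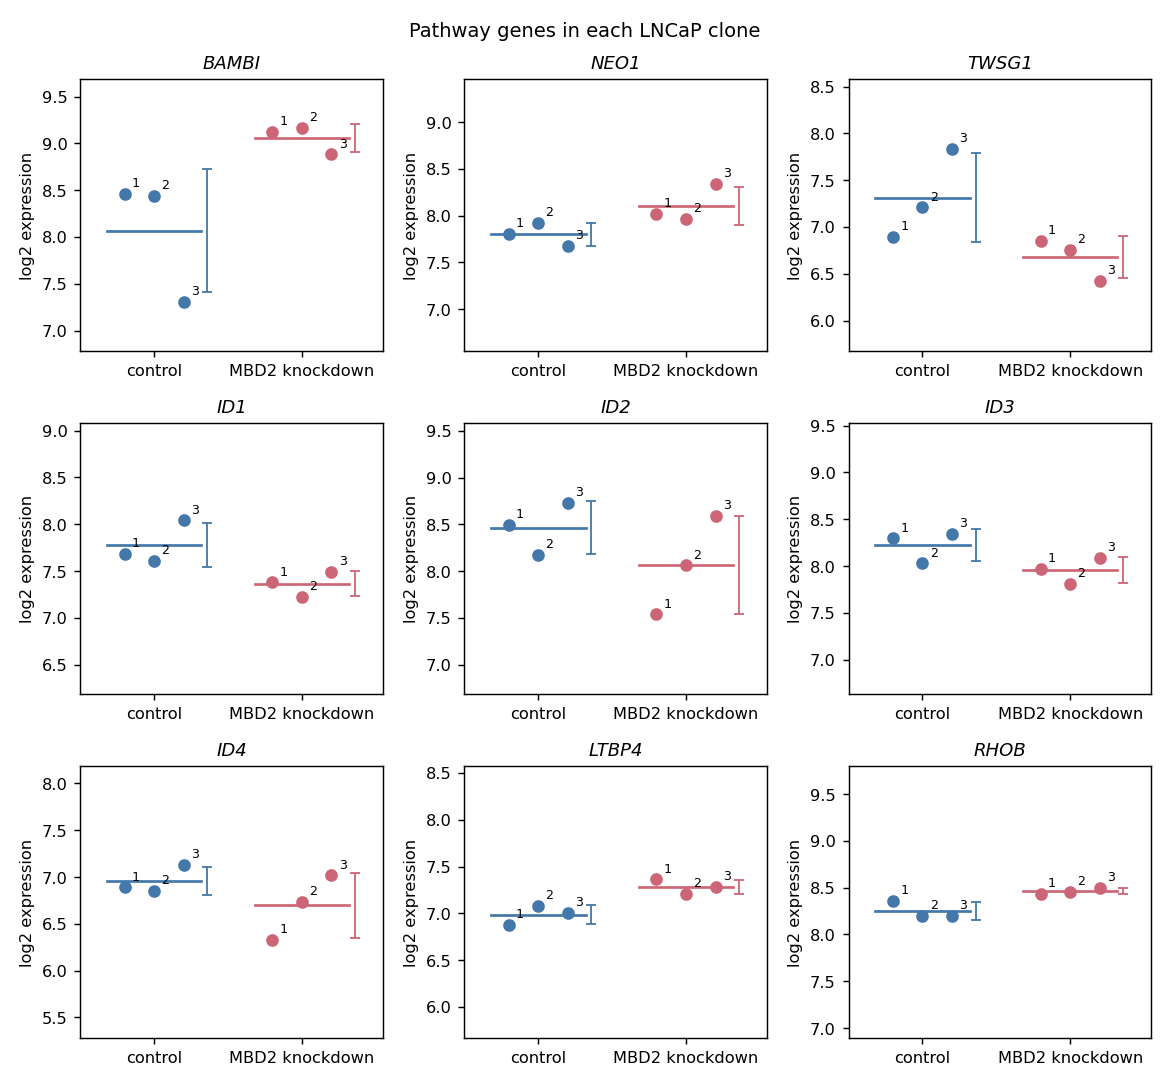
Log2 expression (y axis, 2.9 units in every panel) of 9 other pathway genes in control and MBD2 knockdown clones; numbered points are clones, horizontal lines group means and bars 1 SD. All knockdown clones lie above all controls in BAMBI, NEO1, LTBP4 and RHOB and below them in TWSG1 and ID1, and the groups overlap in ID2, ID3 and ID4. The genes shown were picked by the smallest p of their list or after their values were seen. Groups did not overlap in 15.4% of all genes.

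Of 20 measured TGF-beta and activin targets 10 were higher and 10 lower, with a median of 0.0036. RHOB, a small GTPase gene, had 8.36, 8.20 and 8.20 in the controls, against 8.43, 8.45 and 8.49 in the knockdown clones, a log2 fold change of 0.21 (SE 0.08, limma adjusted p = 0.485). TSC22D1, a leucine zipper gene induced by TGF-beta, had 0.39 (0.571), with overlapping groups, and ranged from 0.22 without knockdown clone 3 to 0.59 without knockdown clone 1. PMEPA1 is itself on this list.

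PMEPA1 and BMPR1B were also read beside other androgen receptor targets, of which 8 of 9 measured genes were higher and 1 lower, with a median of 0.19. BMPR1B, at -0.82, lay below all 9, whose lowest was ZBTB16 at -0.28, with every knockdown clone below the lowest control. STEAP4, a metalloreductase gene named after its values were seen, had the largest difference on any list, with a log2 fold change of 1.88 (SE 0.92, limma adjusted p = 0.586). It had 3.67, 3.86 and 3.65 in the controls, against 3.13, 6.55 and 7.15 in the knockdown clones. Knockdown clone 1 was thus below every control, and clones 2 and 3 above every control, as in PMEPA1. Unlike PMEPA1, STEAP4 lay below the lower quartile of genes in every control and in knockdown clone 1. Whether it was above background on those arrays is unknown, which limits its order among them and its fold change. TSC22D3, which codes for a leucine zipper protein, had a log2 fold change of 1.10 (limma adjusted p = 0.315) and NDRG1, a stress-responsive gene, had 0.82 (0.352), both with groups that did not overlap. Of 11 measured androgen receptor targets, PMEPA1 and BMPR1B included, 2 did not overlap above and 1 below, against 15.4% of all genes. KLK3, which codes for prostate-specific antigen, had 8.67, 10.12 and 8.48 in the controls, against 8.66, 10.30 and 10.44 in the knockdown clones. PMEPA1 shared with KLK3 the lowest knockdown value in clone 1, while its order in the controls differed. Clone 1 was also the lowest knockdown clone in KLK2, KLK4, NDRG1 and STEAP4. It was the highest in TSC22D3, SLC45A3 and ABCC4 and the middle one in ZBTB16, so these targets had no common order.

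**Figure D5:**
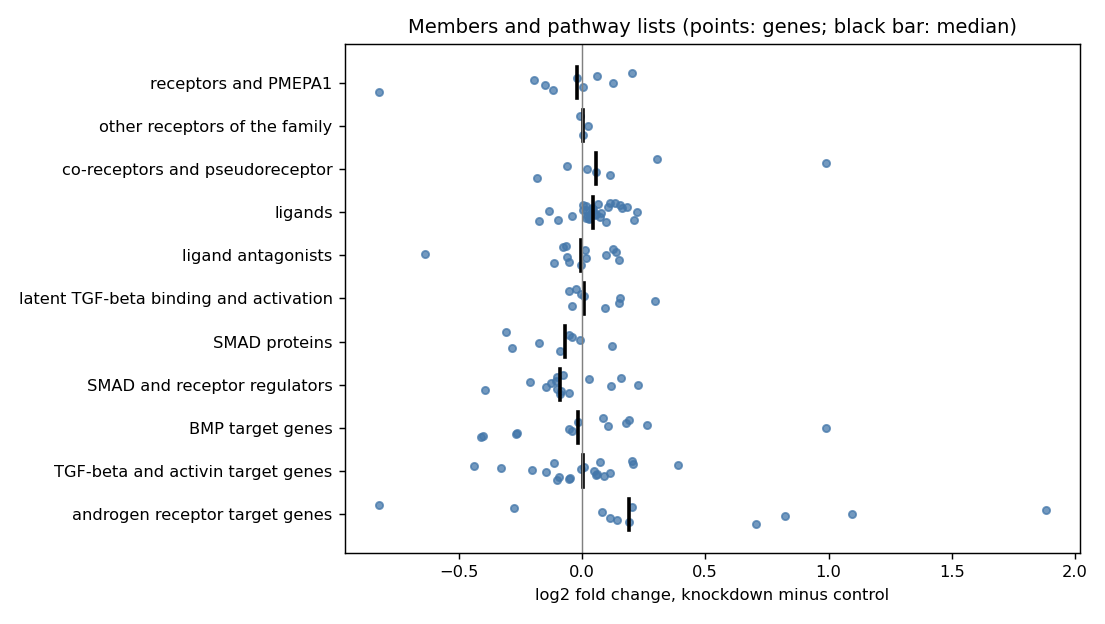
Log2 fold change of knockdown over control (x axis) for each measured gene, grouped by list (y axis), with a black bar at each list's median. The medians lie between -0.089 and 0.19, and the points farthest from 0 are STEAP4 at 1.88, TSC22D3 at 1.10, BAMBI at 0.99 and, on the low side, BMPR1B at -0.82.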

How the data were processed

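The authors deposited 1 table of log2 expression values per array feature for 6 arrays. Per the submitters' processing notes, RMA (background correction, normalization between arrays, probe summary), oligo and limma were used; their versions, the filters and the genome build are not stated there. The range of the deposited values and the use of RMA gave the log2 scale. No further normalization was applied.

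Of 19712 features, 17334 have 1 gene symbol, 1521 several and 857 none listed. Genes with several features kept that of highest mean, which left 16704 genes. Each of the 9 measured genes has a single feature. Symbols were matched by gene identifier to RefSeq (GRCh38.p14), which also gave gene order.

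The fit used limma 3.58.1 (lmFit, eBayes) under R 4.3.3 with no covariates over all genes, with Benjamini-Hochberg adjustment and a threshold of 0.05. Log2 fold changes give knockdown minus control. The fit was tested on 20 simulated data sets of 16704 genes with 200 changes each. It called 88.9% of 2-fold and 98.8% of 4-fold changes there, and 4.73% of calls were false. These rates hold for the simulated data only. In the real arrays MBD2 was 2.43-fold lower in the knockdown clones and did not pass (limma adjusted p = 0.111). How often changes are called among clones that vary as these do was not tested. The rates therefore do not show that genes that did not pass were unchanged. Alternatives were other normalizations, a filter on dim genes, moderation settings, weights per array, a block for the replicate number, other feature sets, a test without moderation, and leaving out each array. They were also run for pathway genes named by the rule, which was added after seeing the data.

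The genes and lists were chosen with earlier results of these data known. Named are the 9 genes and MBD2, of each list the 2 genes with the smallest unadjusted p where none passed, and for BMPR1B and PMEPA1 the 5 genes most alike in pattern. Others named were chosen after their values were seen, as were the stretches of chromosomes 2 and 18. List members with no feature of their own were not analysed here. Features differ in their probes and no detection call was used, so levels were set against other genes only coarsely, for the cell type check and to mark low values. Promoter sequences come from RefSeq.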

Additional observations from a re-analysis of the deposited data

How the results depend on the processing

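Each result was recomputed under 16 alternatives. BMPR1B stayed lower in the knockdown clones in all 16, with log2 fold changes of -1.81 to -0.23 over the arrays left out in turn and an adjusted p (limma) of 0.0192 to 0.973 over all alternatives. It passed the threshold without control clone 1 only, where it was the 1 measured gene of the list that passed, so that count ran from 0 to 1. Genes past the threshold over the whole table numbered 0 with all arrays, 1 with repeated quantile normalization, 1 with cyclic loess, 325 with array weights and 0 to 70 with arrays left out in turn. With array weights, knockdown clone 1 had a weight of 0.252 and clone 2 one of 3.43. Signs turned with single arrays for most other genes: the ranges over arrays left out were -0.22 to 0.040 for ACVR1, -0.062 to 0.071 for ACVR1B, -0.27 to 0.020 for TGFBR1, -0.047 to 0.34 for BMPR2, -0.064 to 0.048 for ACVR2B, -0.12 to 0.31 for TGFBR2, -0.014 to 0.55 for PMEPA1, -0.056 to 0.10 for ACVR1C and -0.032 to 0.021 for AMHR2. ACVR2A was lower in all alternatives (-0.33 to -0.07). PMEPA1 had 0.46 with array weights (unadjusted p = 0.0214, adjusted p = 0.168, limma). ACVR1B turned to -5.9e-05 with arrays centred on their median and -0.081 with array weights. ACVR1C turned to -0.012 with quantile normalization, -0.013 with cyclic loess and -0.051 with array weights, which also gave AMHR2 0.0071. MBD2 passed with array weights, without control clone 1 and without knockdown clone 1, and NDRG1 with array weights. BAMBI, TWSG1 and ID1 kept their direction in all 16. Of the 10 list medians 4 kept their sign in all 16 (co-receptors, SMAD proteins, regulators and androgen receptor targets) and 6 turned in at least 1, the ligands ranging from -0.012 to 0.11. The causes of these changes were not tested.

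The labels number the clones 1 to 3 in each group. Across genes, same-numbered clones correlated at -0.025, -0.19 and 0.17 in their deviations from group means, and control clone 2 correlated best with knockdown clone 1 (0.22), so the numbers were not taken as a pairing. With the replicate number as a block, BMPR1B had -0.82 with an adjusted p of 0.719 (limma), 0 genes of the list passed, 0 genes passed over the whole table, and no call changed.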
